A study of Rattus norvegicus with 8 samples.

Results

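The constitutive subunits of the proteasome were described in the epitrochlearis muscle of rats fed after exercise. The rule went by gene name and was set with earlier results of these data known. It took every probe set annotated to exactly 1 gene whose symbol is Psma, Psmb, Psmc or Psmd followed by digits. The 3 interferon-induced catalytic subunits Psmb8, Psmb9 and Psmb10 were left out. The rule gave 44 probe sets of 33 genes out of 31042 probe sets tested. The 20S core held 15 of them (13 genes), the ATPase ring of the base 9 (6 genes), the non-ATPase base 3 (3 genes), the lid 13 (8 genes) and the assembly chaperones of the base 4 (3 genes). The catalytic subunit Psmb6 and a further probe set of Psma3 lay only on probe sets annotated to 2 genes, so they were not counted.

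The groups were 4 male Sprague-Dawley rats of 6 weeks given a meal of carbohydrate with whey protein hydrolysate (WPH, enzyme-cut milk whey) and 4 given carbohydrate with a mixture of free amino acids (AAM). Both groups had been trained to swim, were kept on a restricted ration the day before, swam for 2 hours and received by gavage a meal of equal energy directly afterwards. Neither an unfed nor an unexercised group was analysed here, and the sources used here give no time of sampling. The epitrochlearis is a small forelimb muscle, and total RNA of each was measured on 1 Affymetrix 3' expression array. All 16 probe sets of the fast-fibre and common muscle markers (11 genes, among them Acta1, Ckm, Tnnt3 and Myh4) lay above the median level of all probe sets. In whole muscle, fewer cells of a type and less RNA per cell cannot be told apart.

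The proteasome is the large protease that degrades proteins tagged with ubiquitin. Its core particle is a barrel of alpha rings, which form the gate, around beta rings, which hold the catalytic sites. A regulatory particle caps the barrel. The ATPase ring of its base unfolds the substrate and opens the gate, the other base subunits bind ubiquitin, and the lid removes the ubiquitin chain. In skeletal muscle this system breaks down much of the contractile protein during fasting and disuse. Genes of the subunits are known to be raised together, and the transcription factor Nfe2l1 (Nrf1) drives them when proteasome capacity is short.

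The values were the deposited levels, on a scale like log2, from 5.28 to 14.2, with a median of 6.66 on every array. Differences between arrays were minute on this scale and cannot be read as fold changes. They are given here as deviations from a probe set's mean over the 8 arrays, in millionths of the deposited unit, always in the order of replicates 1 to 4. The SD over the 8 arrays had a median of 83.4 millionths over the 44 proteasome probe sets and 3.69 millionths over all probe sets. The size of a meal difference is the standardized difference, the WPH mean minus the AAM mean in units of the pooled within-group SD, with a 95% interval. The number of arrays limits the precision.

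The promoters of the subunit genes were searched for 3 motifs of factors known to act on such genes, and the matches are shown first. RefSeq windows of the GRCr8 assembly, from 250 bases before to 50 after the gene start, were found for 29 of the 33 genes. The antioxidant response element core, to which Nfe2l1 and its relative Nfe2l2 bind, was searched as TGACNNNGC on both strands. It stood in 6 of the 29 windows (20.7%) and in 12.1% of all 33469 promoter windows of the same length. The matches, with up to 20 bases on either side, follow 5′ to 3′ on the strand of the match, with the motif in capitals.
Psma3: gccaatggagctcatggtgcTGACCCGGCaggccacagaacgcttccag
Psmb2: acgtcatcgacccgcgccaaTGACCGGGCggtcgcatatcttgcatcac
Psmb5: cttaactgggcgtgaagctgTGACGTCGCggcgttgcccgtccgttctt
Psmd1: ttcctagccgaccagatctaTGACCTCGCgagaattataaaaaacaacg
Psmd1: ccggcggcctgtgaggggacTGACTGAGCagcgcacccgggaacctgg
Psmd3: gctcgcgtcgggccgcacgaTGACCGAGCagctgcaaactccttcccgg
Psmd9: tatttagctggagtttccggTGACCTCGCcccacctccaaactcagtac
Psmd9: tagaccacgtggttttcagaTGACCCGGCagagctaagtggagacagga
The Psma3 window lay at chr6:95219717-95219765 on the minus strand, the Psmb2 window at chr5:144254970-144255018 on the plus strand and the Psmb5 window at chr15:32047411-32047459 on the minus strand. The 2 Psmd1 windows lay at chr9:94157786-94157834 and chr9:94157973-94158020 on the plus strand, and the Psmd3 window at chr10:84139931-84139979 on the minus strand. The 2 Psmd9 windows lay at chr12:39018313-39018361 on the minus strand and at chr12:39018360-39018408 on the plus strand. The match was on the gene's own strand in Psmb2, Psmb5 and Psmd1, on the opposite strand in Psma3 and Psmd3, and on both in Psmd9.

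A CCAAT box (CCAAT, bound by the factor NF-Y) stood in 16 of the 29 windows (55.2%) and in 37.5% of all promoter windows, and a GC box (GGGCGG, bound by Sp1) in 20 (69.0%) and in 33.1%. Both were searched on both strands. Of the 29 windows 26 held at least 1 of the 3 motifs, and those of Psmb4, Psmc2 and Psmd11 held none. Psma3 and Psmb2 were the 2 genes whose windows held all 3 motifs, and their whole windows are given on the genes' own plus strand, at chr6:95219499-95219798 and chr5:144254808-144255107 of GRCr8. Capitals mark every match of the 3 motifs on either strand.
Psma3: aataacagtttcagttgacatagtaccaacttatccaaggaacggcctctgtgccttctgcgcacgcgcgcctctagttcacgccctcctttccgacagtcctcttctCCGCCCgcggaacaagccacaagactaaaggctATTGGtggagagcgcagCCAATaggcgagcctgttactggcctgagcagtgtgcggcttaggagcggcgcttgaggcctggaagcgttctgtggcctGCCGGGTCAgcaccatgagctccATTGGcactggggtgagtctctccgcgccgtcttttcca
Psmb2: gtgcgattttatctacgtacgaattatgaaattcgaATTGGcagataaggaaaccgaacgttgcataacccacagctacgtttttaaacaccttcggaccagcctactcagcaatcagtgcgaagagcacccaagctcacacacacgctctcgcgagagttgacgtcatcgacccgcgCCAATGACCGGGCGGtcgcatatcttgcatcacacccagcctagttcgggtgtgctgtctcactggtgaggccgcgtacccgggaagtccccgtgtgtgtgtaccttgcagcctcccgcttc
A match describes letters in the window and not a bound site, and factor binding was not measured.

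No proteasome subunit differed between the meals past the threshold. Of the 44 probe sets, 0 passed an adjusted p of 0.05 in limma with Benjamini-Hochberg adjustment, which called 0% of all 31042 probe sets. At an unadjusted p under 0.05, 0 of the 44 were called, against 3.58% of all probe sets (1.86% lower after WPH). The 4 WPH and the 4 AAM muscles did not overlap in 0 of the 44, against 2.23% of all probe sets. The subunit levels were lower on average after WPH in 30 probe sets and higher in 14, against 52.7% lower over all probe sets. This split rested on single muscles, since the number lower was 10 of 44 without AAM replicate 1, 16 without AAM replicate 4 and 17 without WPH replicate 4. It was 40 of 44 after median centring, which put 91.0% of all probe sets lower, and 15 of 32 after quantile normalization, where 46.0% of all probe sets were lower.

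The median standardized difference was -0.18 over the 44 probe sets and -0.04 over all probe sets, and 37 of the 44 lay within 0.5 of 0, against 54.1% of all. By role, the median was -0.24 in the 20S core (12 of 15 lower after WPH), 0.01 in the ATPase ring (4 of 9), -0.06 in the non-ATPase base (2 of 3), -0.14 in the lid (8 of 13) and -0.28 in the assembly chaperones (4 of 4). The 7 alpha-ring probe sets, 1 for each gene, were all lower on average after WPH, with a median of -0.36. Their smallest unadjusted p was 0.318 and their adjusted p was 0.9998 in limma. They correlated with each other at a mean of 0.823 over the same muscles, so they are not 7 separate observations. With 1 array left out, Psma1, Psma2, Psma3 and Psma5 reached values above 0 (up to 0.29, 0.06, 0.29 and 0.20). Psma4, Psma6 and Psma7 stayed below 0. The intervals of single genes, such as -1.51 to 1.27 for Psma1, left room for differences of more than 1 pooled SD, so these values do not show that the meals acted alike.

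**Figure D1:**
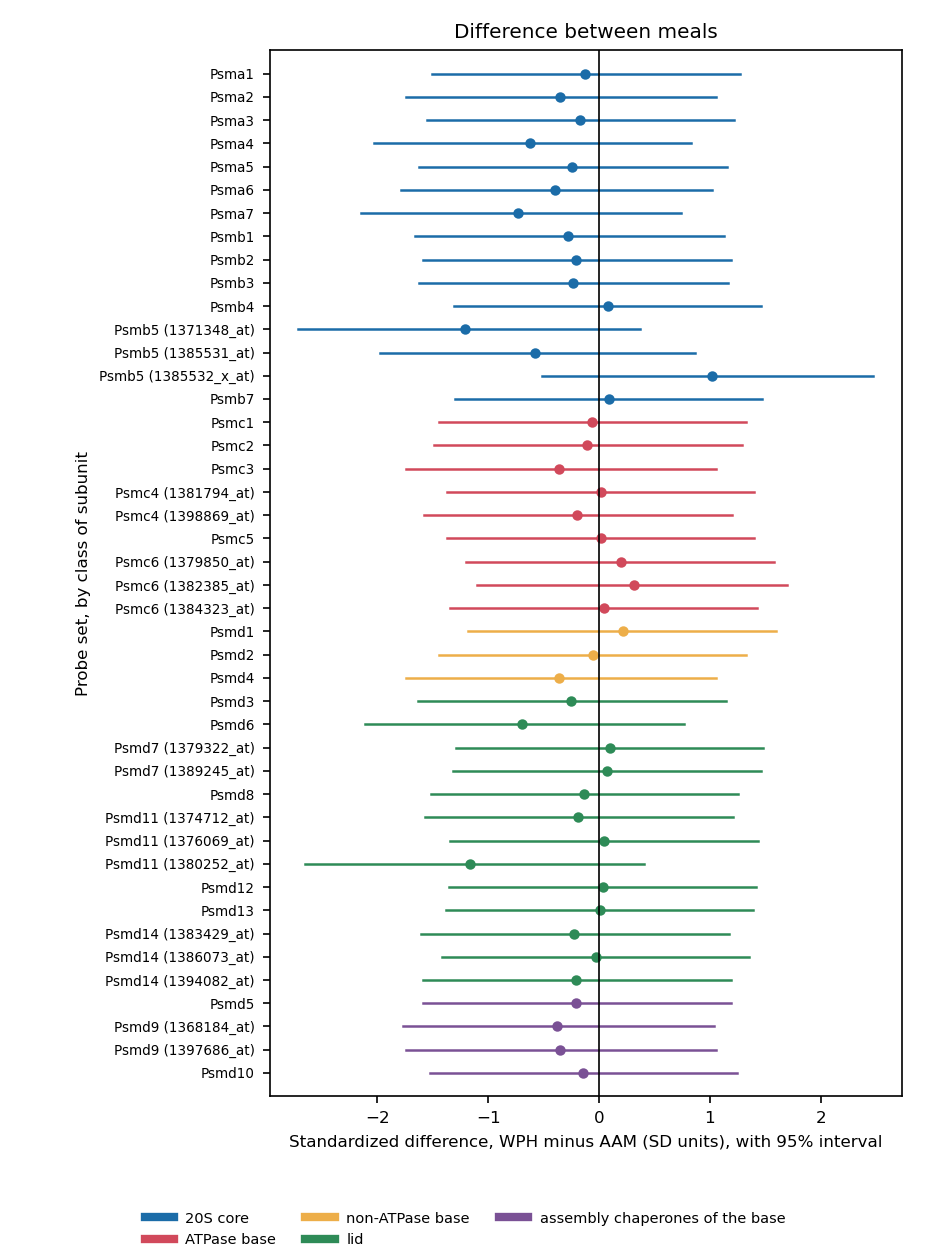
Standardized difference (WPH minus AAM, in pooled SD units) with its 95% interval for each of the 44 proteasome probe sets, grouped by role. Points are estimates and bars are intervals from the noncentral t distribution. Every interval spans 0, and the points run from -1.21 to 1.01.

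The 2 probe sets with the lowest differences and the 1 with the highest belonged to Psmd11 and Psmb5. Psmd11 encodes the lid subunit that clamps the lid to the core and the base. Its probe set 1380252_at deviated by -6.63, 2.06, -2.95 and -0.00800 millionths in the WPH muscles, against -1.52, 1.52, 4.50 and 3.03 millionths in the AAM muscles. The lowest muscle was WPH 1 and the highest AAM 3, and the groups overlapped. The standardized difference was -1.17, with a 95% interval of -2.66 to 0.40, with an unadjusted p of 0.135 in limma and 0.171 in the exact two-sided permutation test, whose smallest possible p is 0.0286. The other 2 probe sets of Psmd11 gave -0.19 and 0.05.

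Psmb5 carries the chymotrypsin-like site of the core, the target of the proteasome inhibitor bortezomib. On its probe set 1371348_at the deviations were -0.0325, -0.603, -1.24 and -0.223 millionths in the WPH muscles, against -0.0925, -0.482, 2.02 and 0.657 millionths in the AAM muscles. AAM 3 was highest, WPH 3 lowest, and the groups overlapped, with a standardized difference of -1.21, with a 95% interval of -2.71 to 0.37 (unadjusted p = 0.163 in limma, exact permutation p = 0.143). The probe set 1385532_x_at of the same gene went the other way, with 1.06, -1.01, 1.47 and 0.399 millionths in the WPH muscles, against -0.966, 0.0909, -1.32 and 0.279 millionths in the AAM muscles. AAM 3 was the lowest muscle there, and the difference was 1.01, with a 95% interval of -0.52 to 2.47. The third probe set, 1385531_at, deviated by -2.65, 0.256, -0.812 and 0.867 millionths in the WPH muscles, against -1.57, 0.251, 4.06 and -0.399 millionths in the AAM muscles. AAM 3 was highest there and WPH 1 lowest, with a standardized difference of -0.57. The 3 probe sets of Psmb5 thus disagreed in sign. Their mean levels were 11.2 (1371348_at), 6.84 (1385532_x_at) and 6.38 (1385531_at), beside an array median of 6.66.

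In the deposited values the subunit genes varied together from rat to rat within either meal. The proteasome profile, the mean over the 44 probe sets of each one's z-score over the 8 arrays, was 0.760, 0.221, -0.636 and -0.719 in the WPH muscles, against 0.898, -0.495, -0.880 and 0.850 in the AAM muscles. It averaged -0.093 ± 0.710 in the WPH muscles and 0.093 ± 0.915 in the AAM muscles (SD, n = 4 each). WPH 1, AAM 1 and AAM 4 stood high, WPH 2 slightly above the middle, and WPH 3, WPH 4, AAM 2 and AAM 3 low, so each meal group held muscles at either end. The mean correlation between pairs of the 44 probe sets across the 8 arrays was 0.575, and 0.575 again with the group means removed. Over all probe sets it was 0.0019. Under both of the 2 scalings between arrays this contrast was reversed, with a lower mean over the proteasome probe sets than over all probe sets. After median centring the mean was 0.631 over the 44 probe sets and 0.688 over all probe sets. This scaling takes 1 value per array off every probe set, which by itself adds a shared term. The term weighs most where spread is small, and the median SD was 3.69 millionths over all probe sets, against 83.4 over the 44. The reversal after median centring thus cannot decide whether the members vary together more than other probe sets. After quantile normalization the mean correlation was 0.0829 over the 32 proteasome probe sets that still varied and 0.242 over all. The points of these correlations are the same 8 extracts and arrays, so they describe these muscles and carry no p-value.

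**Figure D2:**
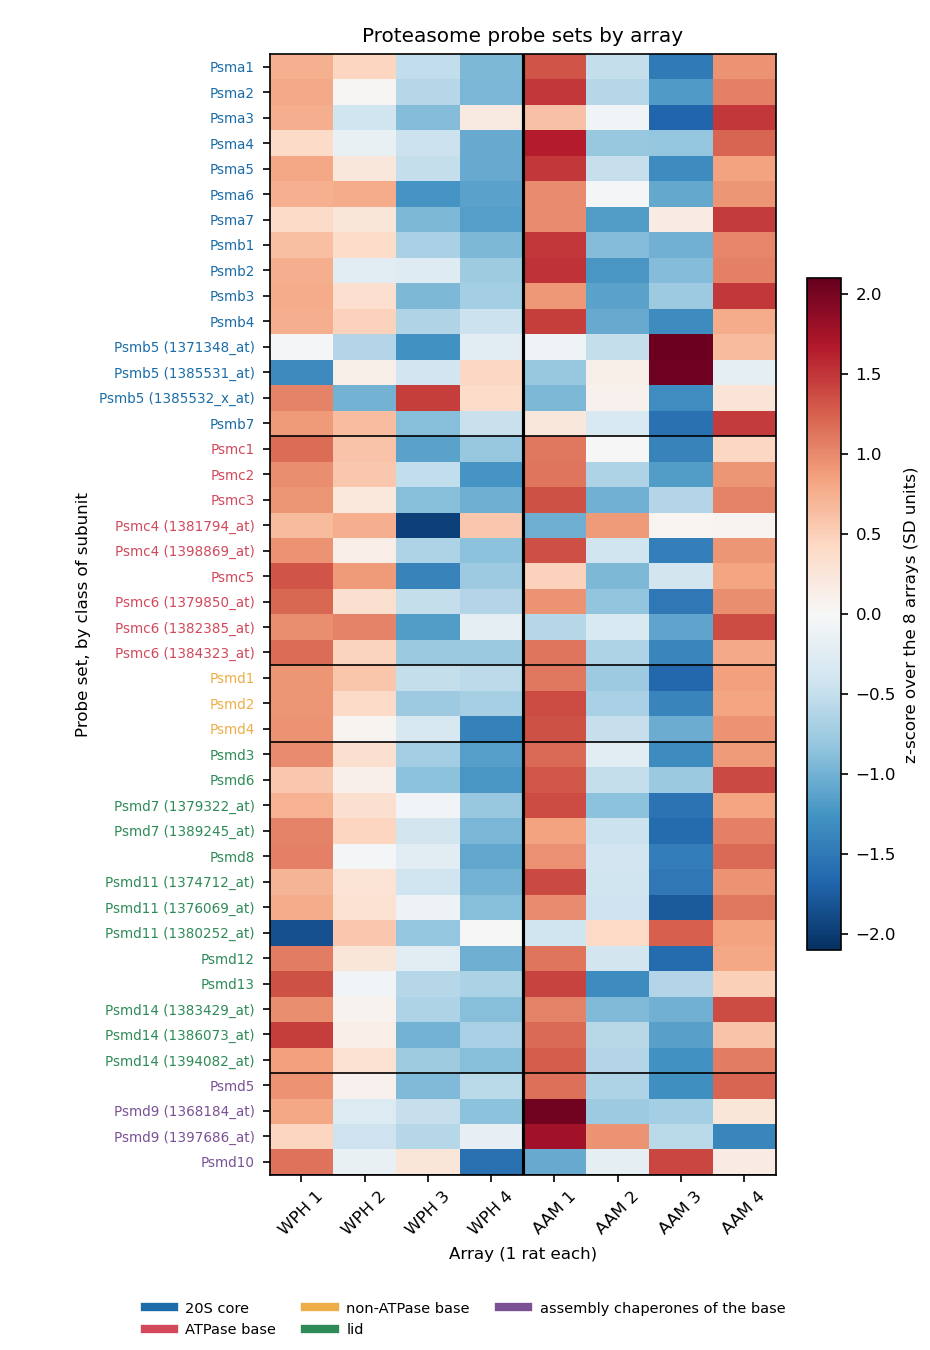
Heat map of the 44 proteasome probe sets (rows, grouped by role) over the 8 muscles (columns, WPH left of AAM). Colour is the z-score of the deposited level over the 8 arrays. Most rows share 1 pattern, high in WPH 1, AAM 1 and AAM 4 and low in WPH 3, WPH 4, AAM 2 and AAM 3.

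Each probe set was set, on the deposited values, against the profile made without its own gene. The median Pearson correlation was 0.945 (median Spearman correlation 0.905), and 30 of the 44 probe sets (68.2%) exceeded 0.9, against 454 of the 30998 other probe sets (1.46%). At 0.7 the counts were 36 of 44 (81.8%) and 3007 (9.70%). The proteasome probe sets were also among the more variable, with 25 of the 44 in the most variable 10% of probe sets. All 25 exceeded 0.9, against 151 of the 3080 other probe sets among those 10% (4.90%). The profile was noticed in these data, and the values describe it without a test. The sources used here give neither an array batch nor which rats swam together, and their part in the shared pattern was not tested.

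**Figure D3:**
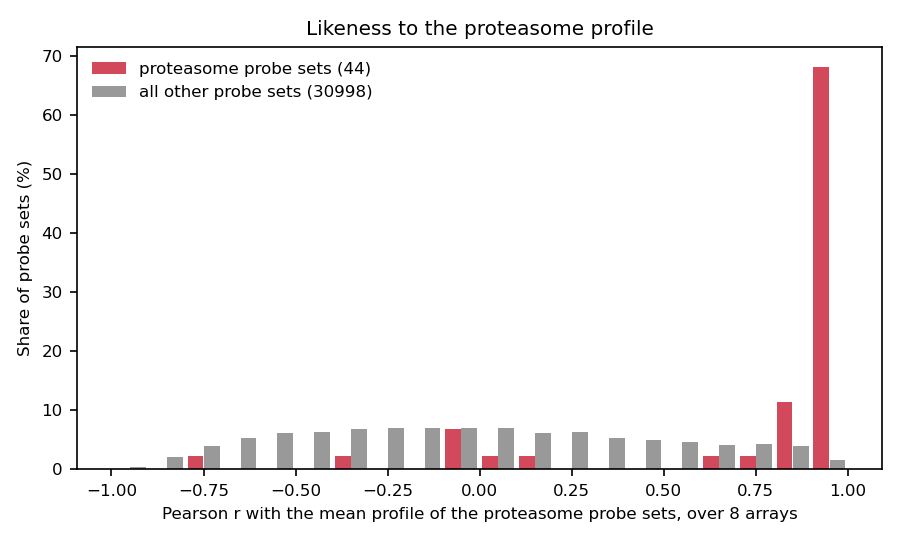
Distribution of the Pearson correlation with the proteasome profile over the 8 arrays, for the 44 proteasome probe sets (own gene left out of the profile) and for the 30998 other probe sets. The share of probe sets in each interval of the correlation is shown. The proteasome probe sets pile up above 0.9, where 68.2% of them and 1.46% of the others lie.

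The alpha ring of the 20S core varied together. Its 7 probe sets had a mean pairwise correlation of 0.823, and their score was 0.665, 0.165, -0.737 and -0.877 in the WPH muscles, against 1.22, -0.518, -1.05 and 1.14 in the AAM muscles. AAM 1 and AAM 4 were the 2 highest muscles and AAM 3 the lowest. Psma1 deviated by 309, 190.0, -217 and -394 millionths in the WPH muscles, against 549.7, -209, -619 and 389.7 millionths in the AAM muscles. It had WPH 1, WPH 2, AAM 1 and AAM 4 above its mean and the others below it, and its Spearman correlation with the profile was 1. Over the 7 alpha genes the correlation with the profile ran between 0.782 (Psma3) and 0.979 (Psma2). Psma7 had the largest meal difference of the ring. It deviated by 2.23, 1.41, -5.36 and -6.53 millionths in the WPH muscles, against 5.59, -6.65, 0.989 and 8.33 millionths in the AAM muscles. AAM 4 was highest and WPH 4 and AAM 2 lowest, the groups overlapped, and the standardized difference was -0.73, with a 95% interval of -2.15 to 0.74 (unadjusted p = 0.318 in limma, exact permutation p = 0.400). The other 6 alpha genes lay between -0.63 and -0.12.

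The beta ring was split by gene, with Psmb5 apart from the others. Its mean pairwise correlation was 0.168 over 8 probe sets, and the score was 0.440, 0.0230, -0.456 and -0.338 in the WPH muscles, against 0.470, -0.614, -0.346 and 0.820 in the AAM muscles. Psmb7, which carries the trypsin-like site, deviated by 16.6, 12.1, -16.7 and -8.58 millionths in the WPH muscles, against 4.38, -5.82, -29.1 and 27.2 millionths in the AAM muscles. AAM 4 was its highest and AAM 3 its lowest muscle, and its correlation with the profile was 0.874. The groups overlapped, with a standardized difference of 0.09, with a 95% interval of -1.30 to 1.47. The 5 beta probe sets other than those of Psmb5 correlated with the profile between 0.874 (Psmb7) and 0.973 (Psmb1). The 3 Psmb5 probe sets stood apart, at -0.0822, -0.721 and -0.0238.

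In the ATPase ring, whose 6 subunits Psmc1 to Psmc6 thread the unfolded protein into the core, the mean pairwise correlation was 0.689. Its score was 1.04, 0.559, -0.999 and -0.636 in the WPH muscles, against 0.649, -0.436, -0.995 and 0.817 in the AAM muscles. WPH 1 was highest and WPH 3 and AAM 3 lowest. Psmc3 had the smallest p of the ring and deviated by 43.5, 10.4, -41.9 and -47.8 millionths in the WPH muscles, against 62.7, -47.1, -28.8 and 49.0 millionths in the AAM muscles. Both groups held muscles above and below its mean and overlapped, with a standardized difference of -0.36, with a 95% interval of -1.75 to 1.05 (unadjusted p = 0.612 in limma, exact permutation p = 0.543). 7 of the 9 ATPase probe sets followed the profile at a correlation above 0.7, and the exceptions were Psmc4 (1381794_at, 0.00509) and Psmc6 (1382385_at, 0.654).

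The non-ATPase base had the highest mean pairwise correlation of the classes, 0.932 over only 3 probe sets, of Psmd1, Psmd2 and Psmd4. The classes were not alike in spread. The lowest SD over the arrays was 98.1 millionths in the non-ATPase base, against 0.699 to 3.61 in the other classes. Psmd1 and Psmd2 are its large scaffolds, and Psmd4 is a receptor for ubiquitin chains. Psmd4 deviated by 134, 8.67, -47.1 and -204 millionths in the WPH muscles, against 190.0, -69.7, -148 and 136 millionths in the AAM muscles. AAM 1 was highest and WPH 4 lowest, the groups overlapped, and the standardized difference was -0.36, with a 95% interval of -1.74 to 1.06 (unadjusted p = 0.614 in limma, exact permutation p = 0.629). Psmd1 and Psmd2 gave 0.21 and -0.06.

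The lid score was 0.751, 0.239, -0.525 and -0.865 in the WPH muscles, against 1.05, -0.515, -1.11 and 0.970 in the AAM muscles, and the mean pairwise correlation of its 13 probe sets was 0.719. Psmd14, the enzyme that cuts the ubiquitin chain off the substrate, followed the profile most closely of all 44 probe sets. Its probe set 1394082_at deviated by 209, 79.0, -181 and -215 millionths in the WPH muscles, against 307, -149.9, -307 and 258 millionths in the AAM muscles. WPH 1, WPH 2, AAM 1 and AAM 4 lay above its mean, the other 4 muscles below it, and its correlation with the profile was 0.996. The standardized difference between meals was -0.21, with a 95% interval of -1.59 to 1.19. The 13 lid probe sets ran from -1.17 (Psmd11) to 0.10 (Psmd7), and Psmd6, a scaffold subunit, gave -0.70. The 3 probe sets of Psmd14 correlated with each other at 0.917 to 0.972, and the 2 of its partner subunit Psmd7 at 0.948. The lid and the 20S core were built from different probe sets and their scores correlated at 0.977 over the 8 arrays, and the lid and the non-ATPase base at 0.993.

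The assembly chaperones Psmd5, Psmd9 and Psmd10 bind the ATPase ring while it is being built and are absent from the finished proteasome. Their mean pairwise correlation was 0.167, and their score was 0.840, -0.194, -0.437 and -0.789 in the WPH muscles, against 0.976, -0.169, -0.292 and 0.0668 in the AAM muscles. It correlated with the scores of the other classes at 0.756 to 0.822, against 0.923 to 0.993 among those. Psmd9 (1368184_at) deviated by 1.13, -0.392, -0.674 and -1.19 millionths in the WPH muscles, against 2.83, -1.06, -0.987 and 0.351 millionths in the AAM muscles. AAM 1 was highest and WPH 4 lowest, with overlapping groups and a standardized difference of -0.38, with a 95% interval of -1.77 to 1.03 (unadjusted p = 0.607 in limma, exact permutation p = 0.657). This probe set correlated with the profile at 0.824. Psmd5 followed the profile closely, at 0.983, with an SD of 346 millionths over the 8 arrays. The second probe set of Psmd9, and that of Psmd10, did not follow it, at correlations of 0.185 and -0.0570. Their SDs were 1.05 and 0.699 millionths.

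**Figure D4:**
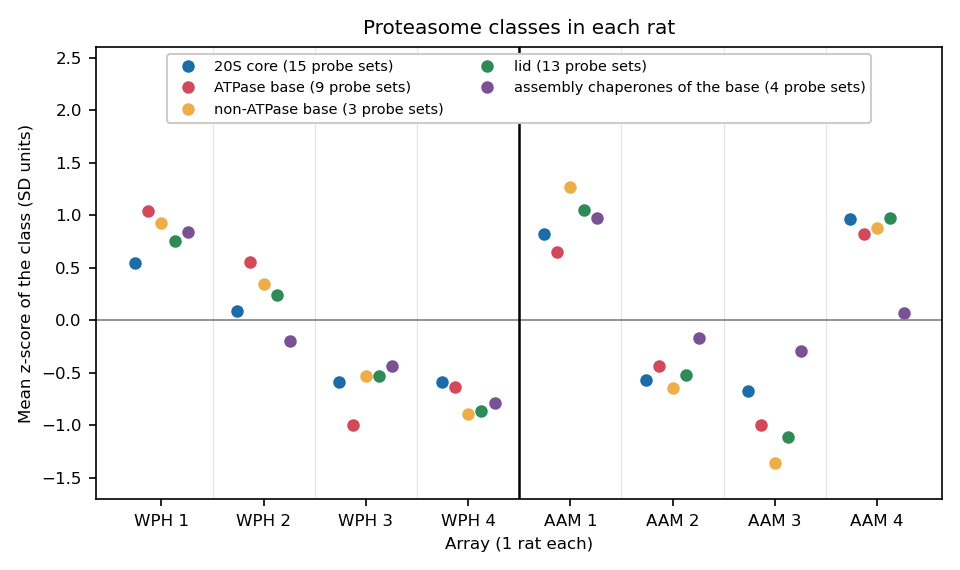
Score of each subunit class in each of the 8 muscles, WPH left of AAM. A score is the mean z-score over the probe sets of the class, and each point is 1 class in 1 muscle. The 20S core, ATPase, non-ATPase and lid scores are high in WPH 1, AAM 1 and AAM 4 and low in WPH 3, WPH 4, AAM 2 and AAM 3, and the 4 WPH and 4 AAM muscles overlap in every class.

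The 8 probe sets with a correlation of 0.7 or less had little spread over the arrays. They were the 3 of Psmb5 and 1 each of Psmc4, Psmc6, Psmd9, Psmd10 and Psmd11. Their SD over the 8 arrays had a median of 1.52 millionths and reached 11.1, against a median of 109 millionths and a lowest SD of 1.39 in the other 36, and 4 of the 8 lay above the median level of the array, against 36 of 36. For Psmc4, Psmc6, Psmd9 and Psmd11 at least 1 other probe set of the gene exceeded 0.7. Between the probe sets of a gene the correlation was 0.691 to 0.984 in Psmc6, -0.43 to 0.975 in Psmd11, -0.029 in Psmc4 and 0.551 in Psmd9.

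The correlation with the profile was set against the promoter motifs. The 9 probe sets of the 6 genes with the antioxidant response element core had a median correlation with the profile of 0.782, and 3 exceeded 0.9. The 29 probe sets of the 23 genes without it had a median of 0.947, and 22 exceeded 0.9. The 3 low-spread probe sets of Psmb5 and both of Psmd9 were in the first set. For the CCAAT box the medians were 0.919 with and 0.944 without a match, and for the GC box 0.948 with and 0.913 without.

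The inducible catalytic subunits Psmb8, Psmb9 and Psmb10, which interferon brings in to form the immunoproteasome, did not share the pattern. Psmb9 deviated by -3541, -846, -3623 and -98.6 millionths in the WPH muscles, against -5067, -5041, 22689 and -4472 millionths in the AAM muscles. AAM 3 alone was high, and the other 7 muscles lay between -5067 and -98.6 millionths. Psmb8 and Psmb10 were likewise high in AAM 3. The 6 probe sets of the immunoproteasome and its activator PA28 had a score of 1.97 in AAM 3, and the other muscles lay between -0.79 and 0.08. Their median correlation with the profile was -0.51, with 0 of 6 above 0.7. None was called between the meals at an unadjusted p under 0.05, against 3.58% of all probe sets. On average 5 of the 6 were lower after WPH, against 52.7% of all probe sets. Of these 6 probe sets 4 were highest in AAM 3. The score of 14 interferon response probe sets, a list that also holds Psmb8 and Psmb9, was 1.85 in AAM 3 and between -0.55 and -0.05 elsewhere. Without those 2 genes it was 1.76 in AAM 3 and between -0.57 and -0.05 elsewhere, and 8 of the 12 probe sets were highest in AAM 3, 3 in AAM 2 and 1 (Irf1) in WPH 1.

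The p97 machinery, which pulls ubiquitin-tagged proteins out of complexes and membranes and hands them to the proteasome, had the highest median correlation of the 8 related lists. All 6 probe sets of Vcp (p97 itself) and its cofactors Nploc4, Ufd1 and Nsfl1c exceeded 0.7 and 5 exceeded 0.9, with a median of 0.966. Vcp deviated by 134, 64.2, -101 and -114 millionths in the WPH muscles, against 198, -99.1, -201 and 118 millionths in the AAM muscles. The high muscles were again WPH 1, AAM 1 and AAM 4, and its correlation with the profile was 0.982. All 6 were lower on average after WPH, against 52.7% of all probe sets. None was called at an unadjusted p under 0.05, against 3.58% of all probe sets.

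Of 19 probe sets of receptors and enzymes that dock on the proteasome, 9 exceeded 0.7, 5 of them 0.9, and 2 lay under -0.7. The 5 above 0.9 belonged to Rad23b (0.984 and 0.914) and Ubqln2 (0.965), which shuttle ubiquitin-tagged proteins, Usp14 (0.973), which trims the chains, and Adrm1 (0.942), a docking ubiquitin receptor. The other 2 probe sets of Ubqln2 stood at -0.20 and 0.285. The 2 under -0.7 were of Ecpas (1381178_at, -0.78), a proteasome adaptor whose 6 probe sets reached up to 0.891, and of the ubiquitin ligase Ube3c (1380705_at, -0.77). Sem1, a small lid subunit, stood at -0.59. Of 15 probe sets of regulators, 6 exceeded 0.7. Nfe2l1 reached 0.873, 0.892 and 0.749 on its 3 probe sets, and Ngly1, the enzyme that helps to activate it, 0.865. Nfe2l2 reached 0.636, and Keap1, which marks Nfe2l2 for degradation, 0.932 and 0.841. The 3 subunits of NF-Y did not reach 0.7 on any probe set, with 0.354 and 0.633 for Nfya, -0.69 and 0.551 for Nfyb and -0.19 and -0.30 for Nfyc. Ddi2, the protease that cuts Nfe2l1 into its active form, stood at 0.555 and 0.388.

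The dedicated muscle ubiquitin ligases, which rise in atrophy, followed in part, with 4 of 6 probe sets above 0.7 and none above 0.9. Fbxo32 (atrogin-1) stood at 0.790 and Trim63 (MuRF1) at 0.733. Of the 5 probe sets of the chaperones that assemble the 20S core, 1 exceeded 0.7 (Psmg3, 0.927), while Pomp, the maturation factor of the core, stood at -0.66. Of 5 probe sets of ubiquitin genes and activating enzymes 1 exceeded 0.7, and of 4 probe sets of other activators and an inhibitor 3 did. Psme3 was not measured by a probe set of 1 gene. In all these lists together 0 probe sets passed an adjusted p of 0.05 between the meals in limma, against 0% of all probe sets. In these lists 0 had non-overlapping groups, against 2.23% of all probe sets.

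**Figure D5:**
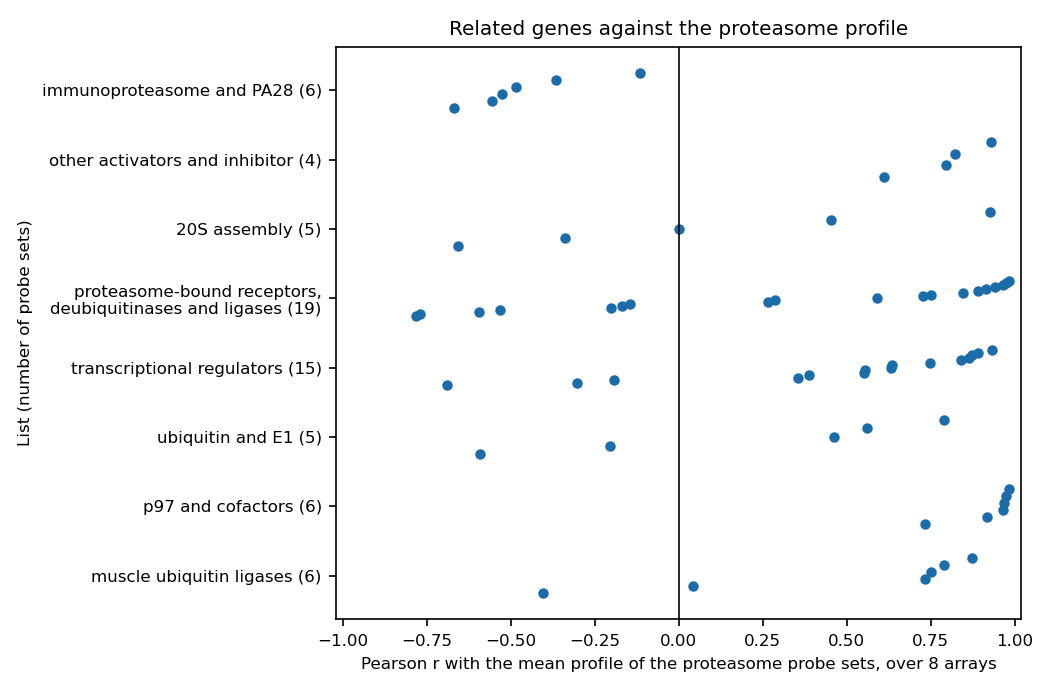
Pearson correlation with the proteasome profile over the 8 arrays for every probe set of the related lists (points, staggered in height within a list). The p97 list lies furthest right with a median of 0.966, and the immunoproteasome list lies left of 0 with a median of -0.51.

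Among all probe sets with 1 gene outside the proteasome, the nearest to the profile were Apbb2 (0.992), Spryd7 (0.988), Rad23b (0.984), Vcp (0.982), Ube4b (0.982), Gtpbp4 (0.981) and Riok2 (0.978). The most opposite were C3h11orf96 (-0.98), Dusp22 (-0.97), Zbtb20 (-0.97) and Pdha1 (-0.97). These were picked by their correlation over the same 8 arrays.

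Markers of other cells and fibre types in the muscle were set beside the profile. The score of 7 slow-fibre probe sets, among them Myh7 and Tnni1, correlated with it at 0.690 (Spearman 0.524). That of the 16 fast-fibre and common muscle probe sets correlated at -0.52 (Spearman -0.38). Those 16 did not vary as 1 group, with a mean pairwise correlation of 0.069, against 0.925 in the slow-fibre list. Of the 16, 2 exceeded 0.7, Myh4 (0.794) and the Myh1 probe set 1377114_at (0.701). The 3 under -0.7 were Tnni2 (-0.75) and the Myh1 probe sets 1377719_a_at (-0.77) and 1377720_x_at (-0.76). Probe sets of Myh1 thus lay on both sides. The slow-fibre score ran from -1.29 to 0.843 in the WPH muscles, against -0.63 to 1.28 in the AAM muscles, and all 7 of its probe sets lay above the median level. The scores of 4 erythrocyte, 7 fibroblast, 5 adipocyte, 4 endothelial and 6 macrophage probe sets correlated at -0.68, -0.58, -0.47, -0.43 and -0.42, and that of 8 lymphocyte probe sets at 0.053. The part of fibre or cell composition in the profile was not tested. The difference between the 3' and 5' control probe sets, a measure of RNA integrity, correlated with the profile at -0.26 for GAPDH and -0.14 for hexokinase. These differences hardly varied, with SDs of 0.311 and 0.644 millionths, against a 10th percentile of 0.660 for the SDs of all probe sets. The part of RNA integrity in the profile was not tested.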

How the data were processed

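Total RNA of 8 rat epitrochlearis muscles, 4 after WPH and 4 after AAM, was measured on 1 array each. Per the labels each array is a biological replicate. The deposited values are expression levels per probe set on a log2-like scale, made by the authors. R 2.7.2 is named per the submitters' processing notes. How the values were corrected for background, normalized and summarised per probe set is not stated there, so scale and centring stay unknown. No pair of arrays held the same values.

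From 31099 probe sets, 57 controls were left out and 31042 tested (20826 with 1 symbol, 436 with several, 9780 unnamed here). Symbols came from the platform annotation. WPH was compared with AAM with lmFit and eBayes of limma 3.58.1 (R 4.3.3, prior df 0.549, two-sided), with Benjamini-Hochberg adjustment over all tested probe sets and a threshold of 0.05. Exact permutation tests used the 35 splits of the arrays. Intervals of the standardized difference (95%) were noncentral t intervals with 6 residual degrees of freedom. The procedure was tested on simulated data. Figures and scores were made in Python 3.11.15.

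The members and lists were chosen with earlier results of these data known. Values in every array were given for the catalytic subunits, for the probe set of smallest p in each class and for any with groups that did not overlap, of which there were 0. Psma1, Psma7, Psmd6 and Psmd14 among the members, Psmb9 and Vcp outside them, and the genes nearest to and most opposite the profile were chosen after their values were seen. The alternatives were 2 scalings between arrays, a filter on dim probe sets, 1 probe set per gene, other variance priors, array weights, a threshold of 0.1, the replicate number as a block and each array left out. The mean correlation between pairs was added after seeing the data.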

Additional observations from a re-analysis of the deposited data

Results flagged for a closer look

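In 11 of 270 groups of 4 muscles, 1 muscle stood apart from the rest of its group. Dixon's ratio, the gap to the nearest muscle divided by the range of the group, exceeded its 95% critical value there. Chance alone flags about 1 in 20 groups, which is 13.5 of 270. Among the 88 groups of the proteasome probe sets there was 1, Psmc4 (1381794_at), in which WPH 3 lay low (ratio 0.925). In AAM 3 the 3 immunoproteasome subunits Psmb9 (0.979), Psmb10 (0.908) and Psmb8 (0.873) lay high, and so did the interferon response score (0.937), which includes Psmb8 and Psmb9. In WPH 4, Fbxo32 (0.902), Nfe2l1 (1390068_at, 0.895) and Psme4 (1368817_at, 0.889) lay low. The others were Ubqln1 (1388719_at), low in WPH 2 (0.854), Uba6 (1391236_at), high in AAM 2 (0.916), and Nfyc (1398268_at), low in AAM 1 (0.863).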

How the results depend on the processing

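Between the meals, 0 of all probe sets and 0 of the 44 proteasome probe sets passed the threshold under every alternative run. With 4 arrays a group the intervals stay wide. The number of proteasome probe sets lower after WPH was 30 of 44, and it was 15 of 32 after quantile normalization and between 10 and 42 of 44 with 1 array left out. The median standardized difference over the members ran from -0.60 to 0.16 with 1 array left out, so its sign rests on single muscles. After median centring it was -0.35, beside -0.51 over all probe sets. The mean correlation between pairs (0.575) was 0.554 to 0.612 with 1 array left out, against 0.00041 to 0.0022 over all probe sets. It was 0.940 over the 25 members in the most variable 10% of probe sets and 0.0829 after quantile normalization. After quantile normalization and after median centring it was lower over the members than over all probe sets. Median centring by itself gives all probe sets a shared term. Quantile normalization left 12 of the 44 without spread. In the deposited values the median gap from a member to the next higher value on an array was 395 millionths, against a median SD of the members of 83.4. Without AAM 1 and AAM 4, both high and the 2 arrays farthest from the median of the profile, the mean was 0.575. With the replicate number as a block, 30 of 44 were lower, the median was -0.22 and the mean correlation 0.566. Same-numbered arrays of the groups correlated at 0.167, 0.139, 0.067 and -0.08 in their deviations, so the number is not shown to pair the rats, and the block changed no call.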
